A study of Mus musculus with 9 samples.

Results

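The 42 genes described here write, erase or read acetyl marks on histones, or hold deacetylases in complexes. They were taken by name, outside the SAGA and ATAC complexes, from a table of 54752 gene identifiers, and all 42 were found and passed the filter on low counts. By role they comprise 11 acetyltransferases and coactivators with that activity, 11 zinc-dependent deacetylases, 7 sirtuins, 7 bromodomain proteins and 6 corepressor scaffolds. B16F10 is a mouse melanoma line, and the 9 messenger RNA libraries came from 3 groups with 3 libraries each. The control group, GFPsg, carried a guide named for GFP and was labelled wild type, and the other groups, Tada2bsg1 (guide 1) and Tada2bsg2 (guide 2), carried guides named for Tada2b with the knockout genotype. The protein TADA2B serves SAGA as an adaptor in its acetyltransferase module. The labels do not say whether the edited cells were pools or single clones, nor whether replicates were separate cultures, so that p-values speak only of the scatter among these libraries, and that scatter could be technical.

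Acetylation of lysines on histone tails lowers the positive charge of the tails and makes a docking site for bromodomains. Acetyltransferases of several families place the mark, zinc-dependent deacetylases and the NAD-dependent sirtuins remove it, and scaffolds such as SIN3, NCOR and CoREST bring deacetylases to DNA-bound repressors. In pigment cells the coactivators EP300 and CREBBP are known partners of the lineage factor MITF.

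Library totals ran from 70.6 to 76.9 M counts (M, mega). Tada2b itself was counted at 25.2 to 28.0 CPM (counts scaled to 1000000 per library, on library sizes scaled by trimmed mean of M-values) in GFPsg, at 32.3 to 33.3 CPM with guide 1, all above the controls (0.30 on the log2 scale, edgeR adjusted p = 0.000213), and at 25.9 to 29.0 CPM with guide 2, which overlapped them (0.02, adjusted p = 0.806). It was lower in neither guide group, and the mRNA level is no check of the knockout label, since edits are not visible in summed reads. The 7 melanocyte markers summed to between 20320 and 21120 CPM in GFPsg, between 4973 and 5210 CPM with guide 1 and between 7032 and 7274 CPM with guide 2, and none was at 0. All 6 leukocyte markers were under 1 CPM, with Ptprc and Itgam at 0 in every library, and so were all 4 endothelial, all 5 epithelial and 3 of 4 fibroblast markers. GFPsg replicate 1 and Tada2bsg2 replicate 1 stood apart for the longer members. Among the 21 members with a longest transcript over the members' median of 4449 bases, GFPsg replicate 1 was the highest of its group for 20 and Tada2bsg2 replicate 1 for 19, against 5 and 7 of the 21 shorter members. Over all tested genes above that length the shares were 55.3% and 59.8%, and below it 31.7% and 29.7%. Tada2bsg1 replicate 1 was also the highest of its group most often above that length, for 43.0% of all tested genes, against 31.4% below it. Among the longer members it was the highest for 6. With GFPsg replicate 1 and Tada2bsg2 replicate 1 left out, 9012 of all tested genes were called between the knockout label and GFPsg, against 9141 with all libraries. Of the members, 11 were called higher and 11 lower, as many as with all libraries. They were not all the same members, since the calls of Hdac3 (higher) and Hdac9 (lower) were lost and Kat6a (higher) and Brd1 (lower) were gained.

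Levels in GFPsg were compared per kilobase of merged exons (RPKM), which allows genes of different length to be set side by side. Hat1, the acetyltransferase for newly made histone H4, had the highest level of all members at 67.0 ± 3.3 RPKM (SD, n = 3). The MYST-family gene Kat7 followed among acetyltransferases at 15.5 ± 0.31 RPKM, and Kat6b was lowest at 1.20 RPKM. Among deacetylases the class I genes Hdac2 (59.6 ± 3.2 RPKM), Hdac1 (24.8) and Hdac3 (16.01) stood far above the rest, which ran from 3.26 RPKM for Hdac10 down to 0.719 ± 0.097 for Hdac7 and 0.0729 for Hdac9. The Hdac1 level leaves out reads given to its near-identical pseudogene, described below. Sirt2, Sirt7 and Sirt1 were the highest sirtuins at 7.85, 7.07 and 6.51 RPKM, and the mitochondrial Sirt5 and Sirt3 the lowest at 0.666 and 0.607 RPKM. Brd2, a member of the BET family, led the bromodomain genes at 27.6 RPKM, and Mta1, a subunit of the NuRD complex, led the scaffolds at 42.01 RPKM. In GFPsg 13 members lay at 10 RPKM or more, and 20 did when the longest transcript was used as length.

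**Figure D1:**
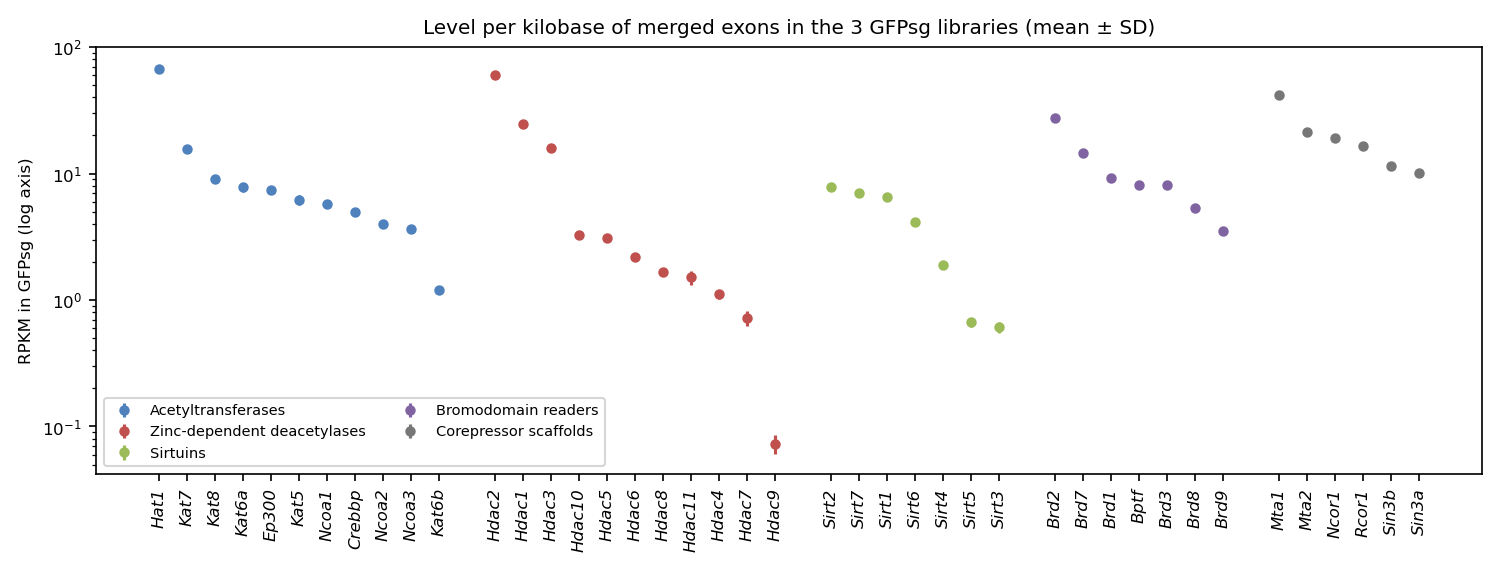
Level of each of the 42 members in the GFPsg libraries, in RPKM on a log axis, grouped by role, with points for the mean and bars for ± SD (n = 3). Hat1 and Hdac2 are the highest at 67.0 and 59.6 RPKM, and Hdac9 is the lowest at 0.0729 RPKM.

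In the first comparison, the knockout contrast, the average of the guide groups was set against GFPsg. Of the 42 members, 11 rose, 11 fell and 20 were not called by edgeR at an adjusted p under 0.05. The share called was 52.4%, near the background of 51.0% of all 17931 tested genes (24.7% higher and 26.3% lower). Most of these changes were small. The median size of the log2 change was 0.13 over the members and 0.24 over all tested genes, and 18 members (42.9%) changed by less than 0.1 in either direction, against 24.8% of all genes. Members lay at a median of 52.0 CPM in GFPsg and all tested genes at 10.8 CPM. Hdac7 and Hdac11 were the members that moved at least 1.5-fold and at least 2-fold, 4.76% of the list, where 18.4% and 11.2% of tested genes were called with such a change. All 6 libraries labelled knockout lay above all 3 GFPsg libraries for 8 members (19.0%, background 21.8%) and below them for 7 (16.7%, background 22.2%), where 44.0% of all tested genes were apart in either direction. The members' median log2 change was 0.02 and the median over all tested genes was −0.02.

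**Figure D2:**
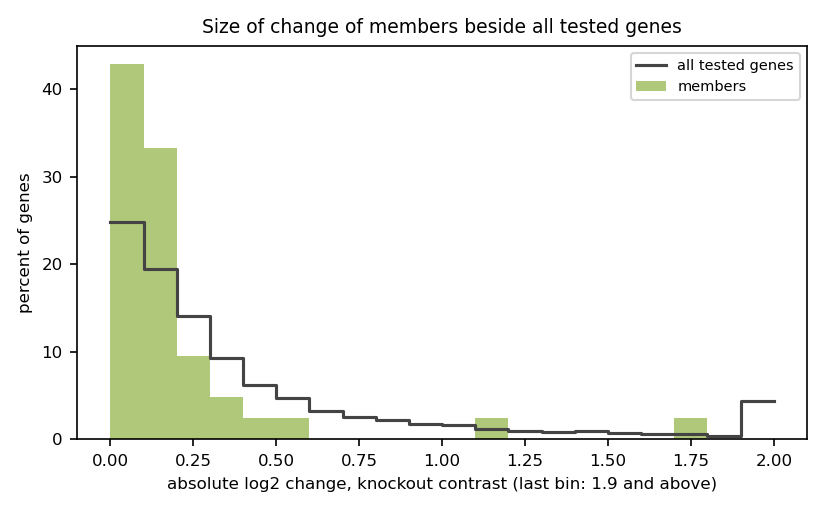
Size of the log2 change in the knockout contrast for the 42 members and for all 17931 tested genes, as percent of each set per bin of 0.1, with all changes of 1.9 and above in the last bin. The first bin holds 42.9% of the members and 24.8% of all genes, and the members past a size of 1 are Hdac7 and Hdac11.

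The split of called members by direction depended on whether the libraries were scaled by size alone. With DESeq2 size factors (RLE) or the upper quartile, no member's call in the knockout contrast changed, and 9154 and 9137 of all genes were called. Scaling by library size alone moved the all-gene median from −0.02 to 0.07 on the log2 scale and gave 18 members higher and 4 lower, in place of 11 and 11. Over all genes it called 9350, in place of 9141. Since the all-gene median rose as well, the split is not read as a result about the members. Of the 22 called members, 12 were called in the same direction under each of the 19 alternatives, and they are Hdac7, Hdac5, Hdac1, Hdac6, Sirt1, Hat1, Kat7 and Ep300, which rose, and Hdac11, Sirt7, Ncoa2 and Brd9, which fell. The other calls were lost under at least 1 alternative, named below where the gene is described.

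Set against the same GFPsg libraries one at a time, guide 1 gave 9 members higher and 10 lower (45.2%, background 48.4%, of which 23.8% higher and 24.5% lower), and guide 2 gave 10 higher and 7 lower (40.5%, background 45.1%, of which 22.1% higher and 23.0% lower). The guide comparisons share their control samples, so their values are given side by side for each gene and their likeness is not counted as support.

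**Figure D3:**
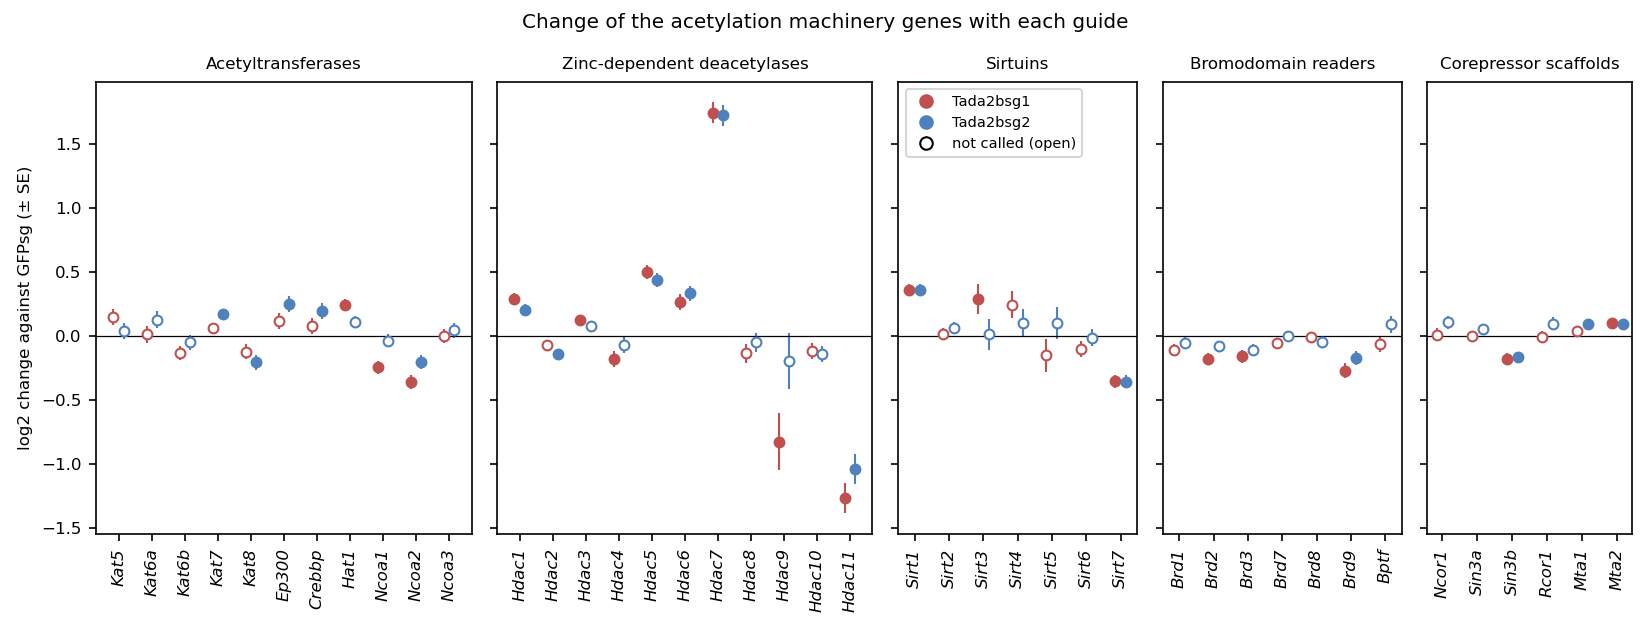
Log2 change of each member against GFPsg with guide 1 and with guide 2, with bars for the standard error, grouped by role. Filled points are called by edgeR at an adjusted p under 0.05, and Hdac7 (1.74 and 1.72) and Hdac11 (−1.26 and −1.03) lie farthest from 0.

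The zinc-dependent deacetylases held both of the larger changes. There 5 of 11 rose (45.5%, background 24.7%), 3 fell (27.3%, background 26.3%) and 3 did not pass the test, for a median log2 change of −0.09. The shares of this and the other roles rest on few genes and were not tested against the background. Class IIa genes (Hdac4, Hdac5, Hdac7 and Hdac9) encode enzymes that shuttle between cytoplasm and nucleus and bind MEF2 factors, class I genes (Hdac1, Hdac2, Hdac3 and Hdac8) the main nuclear enzymes, class IIb genes (Hdac6 and Hdac10) mostly cytoplasmic ones, and Hdac11 forms class IV.

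Hdac7 (ENSMUSG00000022475, chr15:97792664-97844502 on the minus strand of mm10) was counted at 5.49, 4.18 and 4.91 CPM in GFPsg, at 16.5, 16.6 and 15.8 CPM with guide 1 and at 16.5, 15.4 and 16.3 CPM with guide 2. Every library labelled knockout lay above every GFPsg library by a wide margin, and the guide groups overlapped. The gene rose 3.32-fold, or 1.73 ± 0.07 on the log2 scale (± standard error; adjusted p = 2.92e-12 by edgeR), with 1.74 ± 0.08 for guide 1 and 1.72 ± 0.08 for guide 2. Its change stayed between 1.65 and 1.83 over the 19 alternatives. In bulk RNA, a change in the number of cells making a transcript and a change in its amount per cell cannot be told apart. The fall of the melanocyte markers moved with this and the following changes, where its part was not tested.

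Hdac11 (ENSMUSG00000034245, chr6:91156665-91174692, plus strand) encodes the class IV enzyme, known for removing long fatty acyl groups from lysine. It was counted at 6.63, 5.19 and 5.68 CPM in GFPsg, at 2.29, 2.47 and 2.54 CPM with guide 1 and at 3.09, 2.97 and 2.48 CPM with guide 2. All libraries labelled knockout lay below the lowest GFPsg library. Hdac11 fell by 54.9%, a log2 change of −1.15 ± 0.10 (edgeR adjusted p = 3.02e-08), with −1.26 for guide 1 and −1.03 for guide 2. Exons of Gm44002, which was listed at 0 counts, and of Gm14573 on the other strand cover 17.9% of its exons.

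Hdac5 (ENSMUSG00000008855, chr11:102194432-102230166, minus strand), another class IIa gene, was counted at 28.6, 25.9 and 27.0 CPM in GFPsg, at 40.5, 37.5 and 37.3 CPM with guide 1 and at 38.3, 35.3 and 36.8 CPM with guide 2. The controls lay below all other libraries. Hdac5 rose 1.38-fold, by 0.47 ± 0.05 on the log2 scale (edgeR adjusted p = 1.95e-07), with 0.50 for guide 1 and 0.44 for guide 2. Hdac6, the tubulin deacetylase of class IIb, stood at 13.7, 12.2 and 12.6 CPM in GFPsg, 15.4, 15.8 and 15.1 CPM with guide 1 and 16.7, 15.9 and 15.9 CPM with guide 2. Again no control reached the other groups, and the change was 0.30 ± 0.05 (edgeR adjusted p = 0.000162), with 0.27 for guide 1 and 0.33 for guide 2.

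**Figure D4:**
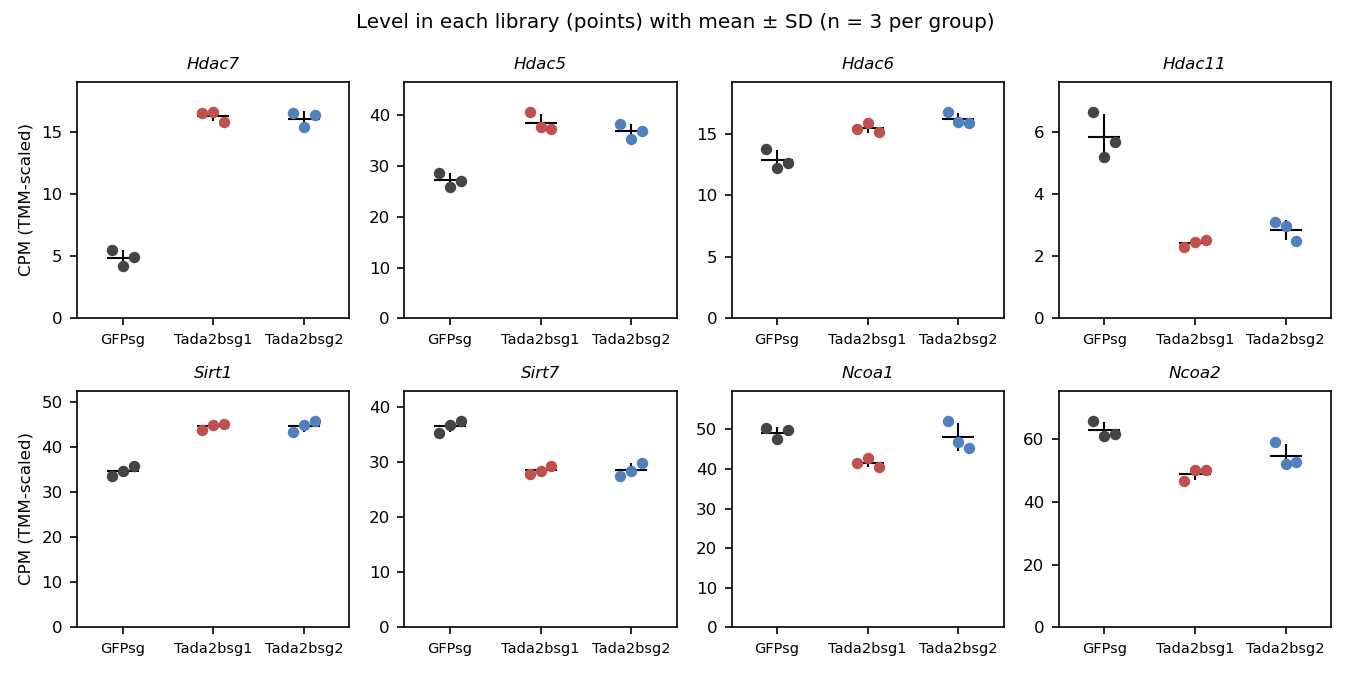
CPM in each library (points) with mean ± SD (bars, n = 3 per group) for 8 members, on linear axes from 0. Hdac7, Hdac5, Hdac6 and Sirt1 are higher and Hdac11, Sirt7 and Ncoa2 lower in all 6 libraries labelled knockout, while Ncoa1 is lower with guide 1 and overlaps GFPsg with guide 2.

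The member levels most like those of Hdac7 over the 9 libraries were those of Hdac5 (Pearson r of log2 CPM 0.98), Sirt1 (0.97) and Hdac6 (0.95). These points share their 3 groups, so the values describe a common split between GFPsg and the other libraries. RefSeq promoter windows of build GRCm38.p6, from 250 bases before to 50 after a start site, were held for 35 of the 42 members, in 49 windows. The stretches before the start sites of these 4 genes are shown because the genes rose together in the same libraries. Hdac7 has several start sites, and the 3 whose upstream bases hold no annotated exon are given. All 6 stretches are on the minus strand and are written 5′ to 3′ with motif matches on either strand in capitals.
Hdac7, chr15:97844503-97844752: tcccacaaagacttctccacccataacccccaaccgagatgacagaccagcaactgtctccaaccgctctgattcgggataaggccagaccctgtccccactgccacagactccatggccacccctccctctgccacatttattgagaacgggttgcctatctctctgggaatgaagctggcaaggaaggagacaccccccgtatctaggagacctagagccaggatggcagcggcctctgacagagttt
Hdac7, chr15:97831768-97832017: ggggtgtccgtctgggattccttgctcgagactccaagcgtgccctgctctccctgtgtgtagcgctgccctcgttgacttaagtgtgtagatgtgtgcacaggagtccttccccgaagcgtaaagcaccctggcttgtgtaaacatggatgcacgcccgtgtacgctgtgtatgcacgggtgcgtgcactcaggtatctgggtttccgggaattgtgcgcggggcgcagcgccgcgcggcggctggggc
Hdac7, chr15:97814864-97815113: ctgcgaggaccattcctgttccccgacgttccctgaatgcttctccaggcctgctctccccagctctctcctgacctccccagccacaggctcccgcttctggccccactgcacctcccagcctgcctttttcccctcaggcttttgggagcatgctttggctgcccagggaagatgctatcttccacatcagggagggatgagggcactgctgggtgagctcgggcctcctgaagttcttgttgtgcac
Hdac5, chr11:102230173-102230422: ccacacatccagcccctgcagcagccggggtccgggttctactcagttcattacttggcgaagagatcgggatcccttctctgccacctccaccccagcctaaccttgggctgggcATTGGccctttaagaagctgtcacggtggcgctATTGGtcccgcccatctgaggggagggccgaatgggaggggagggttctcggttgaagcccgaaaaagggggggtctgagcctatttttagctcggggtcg
Hdac6, chrX:7947890-7948139: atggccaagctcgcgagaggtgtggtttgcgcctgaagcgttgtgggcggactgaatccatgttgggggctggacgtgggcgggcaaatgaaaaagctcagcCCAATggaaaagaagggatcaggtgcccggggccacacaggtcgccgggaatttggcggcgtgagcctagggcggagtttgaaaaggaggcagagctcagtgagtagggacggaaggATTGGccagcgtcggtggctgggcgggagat
Sirt1, chr10:63339051-63339285: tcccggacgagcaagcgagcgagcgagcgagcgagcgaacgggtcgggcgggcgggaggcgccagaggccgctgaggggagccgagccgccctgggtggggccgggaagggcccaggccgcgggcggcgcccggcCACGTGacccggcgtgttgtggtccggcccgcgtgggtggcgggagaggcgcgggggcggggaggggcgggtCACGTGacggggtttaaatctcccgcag
For Sirt1 the 235 bases before the first annotated exon base are shown.

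Each window was searched on both strands for 7 motifs, and no match in the stretches shown overlaps another. Hdac5 and Hdac6 each hold a pair of CCAAT boxes (CCAAT, or ATTGG on the other strand), at −134 and −101 and at −148 and −31 from their start sites, a motif present in 37.4% of all 32851 windows and in 16 of the 49 member windows. Sirt1 holds the E-box CACGTG at −115 and −43, and Hdac5 holds it at position 3 after its start site, outside the stretch shown. The E-box is in 7.15% of all windows and 5 member windows. The 3 Hdac7 stretches hold none of the 7 motifs, and the AP-1 letters TGANTCA lie at position 22 after the start site of the last of them, as in 7.81% of all windows. The M-box CATGTG (14.2% of all windows), the interferon-stimulated response element (3.44%), the cyclic AMP response element (1.79%) and the NRF1 motif (4.60%) were found in 2, 2, 0 and 4 member windows and in none of the stretches shown. CpG pairs numbered 6, 21 and 5 in the Hdac7 stretches, 12 for Hdac5, 17 for Hdac6 and 36 for the 235 bases of Sirt1, against a median of 6 over all upstream stretches of 250 bases. These are descriptions of letters, and binding was not measured.

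Within class IIa the balance of mRNA moved towards Hdac7. Its share of the summed RPKM of the 4 genes went from 14.4 ± 0.98% in GFPsg to 30.9 ± 0.64% with guide 1 and 30.9 ± 0.31% with guide 2 (mean ± SD, n = 3). Hdac4 held 22.2 ± 0.39% in GFPsg and 12.6 ± 0.59% and 13.8 ± 0.13% with the guides, and Hdac5 held 62.0 ± 1.2%, 56.0 ± 1.1% and 54.5 ± 0.22%. No ranges overlapped between GFPsg and either guide for Hdac4, Hdac5 or Hdac7. The class sum was 5.00 ± 0.35 RPKM in GFPsg and 7.81 ± 0.24 and 7.69 ± 0.29 RPKM with the guides, so the smaller share of Hdac4 stands beside a higher total. With the longest transcript as length, the Hdac7 share was 11.3% in GFPsg and 25.7% with each guide.

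**Figure D5:**
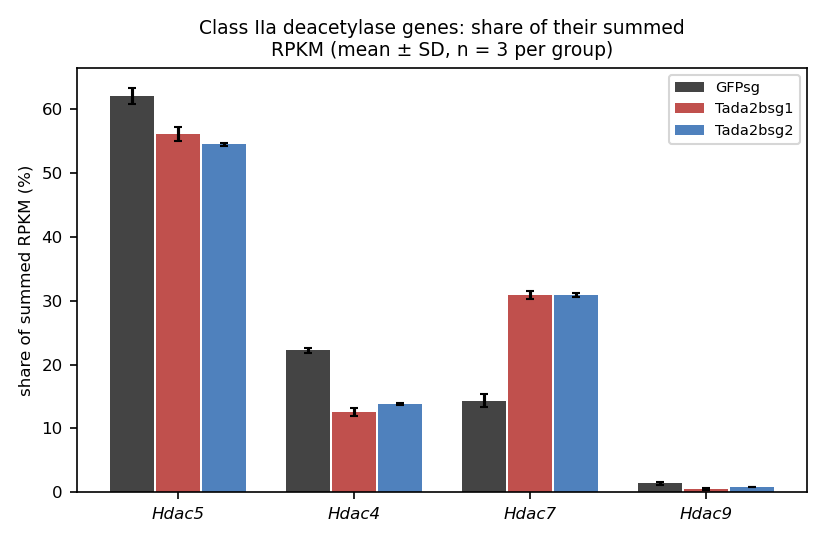
Share of the summed RPKM of the 4 class IIa deacetylase genes held by each gene in GFPsg, Tada2bsg1 and Tada2bsg2, as mean percent ± SD (n = 3). Hdac7 holds 14.4% in GFPsg and 30.9% with each guide, and Hdac5 holds the most in every group.

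Hdac4 itself was not called for the mean of the guides (log2 change −0.12, edgeR adjusted p = 0.0806) or with guide 2 (−0.07, 0.429) and was called lower with guide 1 (−0.18, 0.0330), and Gm26720 on the other strand covers 22.4% of its exons. Hdac9 lay between 0.484 and 1.23 CPM in all libraries and under 1 CPM on average with each guide, at 1.23, 1.11 and 0.867 CPM in GFPsg, 0.760, 0.484 and 0.564 CPM with guide 1 and 1.00, 0.852 and 0.949 CPM with guide 2. The guide 2 libraries overlapped the controls. Hdac9 fell by 0.51 ± 0.19 on the log2 scale (edgeR adjusted p = 0.0328), with −0.82 for guide 1 (0.00598) and −0.20 for guide 2 (0.499), but was no longer called under 10 of the 19 alternatives, with adjusted p from 0.0157 to 0.158. It was lost without GFPsg replicate 1 (0.158) or 2 (0.0980), Tada2bsg1 replicate 2 (0.0704) or 3 (0.0642), or Tada2bsg2 replicate 2 (0.0684) or 3 (0.0510), by DESeq2 (0.0583), and with library size alone, only the groups compared, or both first replicates named above left out (0.157).

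Of the class I genes, Hdac1, the catalytic subunit of the SIN3, NuRD and CoREST complexes, was counted at 80.0, 90.0 and 86.3 CPM in GFPsg, 104, 103 and 106 CPM with guide 1 and 93.9, 99.0 and 103 CPM with guide 2. All libraries labelled knockout were above the controls, and Hdac1 rose by 0.25 ± 0.04 (edgeR adjusted p = 6.4e-05), by 0.29 with guide 1 and by 0.21 with guide 2. A processed pseudogene, Gm10093 (chr17:78491582-78493025), matches 1444 bases of it at 99.4% identity and held 38.4% to 39.5% of their summed counts in every library, so the split of reads between them is uncertain. The sum of both rose by 0.26 ± 0.04 (edgeR adjusted p = 3.72e-05). Hdac2, its close relative, fell by 0.11 ± 0.04 (edgeR adjusted p = 0.0235; −0.07 with guide 1, 0.195, and −0.14 with guide 2, 0.0119), and Hdac3, the enzyme of the NCOR complex, rose by 0.10 (adjusted p = 0.0294; 0.12 with guide 1, 0.0222, and 0.08 with guide 2, 0.147). Both calls were fragile. That of Hdac2 was lost by DESeq2 (0.0534), with library size alone (0.592) and without GFPsg replicate 2 (0.161) or 3 (0.214), Tada2bsg1 replicate 1 (0.0988) or 3 (0.0613), or Tada2bsg2 replicate 1 (0.0611) or 2 (0.0579). That of Hdac3 was lost with no filter on low counts (0.0650), without GFPsg replicate 1 (0.116) or 3 (0.0958) or Tada2bsg1 replicate 2 (0.0634), and with both first replicates named above left out (0.0660). In the summed RPKM of class I, Hdac1 held 24.3% in GFPsg and 28.6% and 28.3% with the guides, and Hdac2 held 58.4%, 53.5% and 53.4%, while the sum was 102, 106 and 101 RPKM. These shares leave out the reads given to Gm10093. Hdac1 and Gm10093 together stood at 131, 146 and 141 CPM in GFPsg, so the share of Hdac1 is uncertain. Hdac8 (−0.09) and Hdac10 (−0.13) were not called.

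Sirtuins, which need NAD, changed in 2 of 7 genes (28.6%, background 51.0%). Sirt1 rose, Sirt7 fell and 5 were not called, with a median log2 change of 0.04. Sirt1 (chr10:63319005-63381704), a nuclear enzyme that also deacetylates p53, was counted at 33.6, 34.7 and 35.8 CPM in GFPsg, 43.7, 44.9 and 45.1 CPM with guide 1 and 43.3, 44.8 and 45.7 CPM with guide 2. No control library reached 36 CPM and no other library was under 43 CPM. Its log2 change was 0.36 ± 0.04 (edgeR adjusted p = 4.69e-07), 1.28-fold, and 0.36 with each guide. Sirt7 (chr11:120618372-120625240), a nucleolar enzyme tied to ribosomal RNA transcription, moved the other way. It stood at 35.3, 36.6 and 37.3 CPM in GFPsg, 27.9, 28.4 and 29.2 CPM with guide 1 and 27.4, 28.3 and 29.8 CPM with guide 2, again without overlap with the controls. The log2 change was −0.35 ± 0.04 (edgeR adjusted p = 1.35e-06), and −0.35 with each guide. Per kilobase of merged exons, Sirt1 was the third sirtuin in GFPsg and the first with both guides, at 8.36 RPKM in each. Sirt2 lay close to it, at 7.95 ± 0.31 and 8.22 ± 0.18 RPKM with guides 1 and 2. With the longest transcript as length Sirt2 was first in every group. It then held 38.4% and 39.1% of the summed sirtuin RPKM with the guides, against 20.4% and 20.1% for Sirt1. Sirt7 went from 7.07 RPKM of merged exons in GFPsg to 5.53 with each guide.

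The mitochondrial Sirt4 came next by p and was not called. It lay at 4.31, 4.45 and 4.78 CPM in GFPsg, 5.70, 4.57 and 5.77 CPM with guide 1 and 4.39, 4.86 and 5.29 CPM with guide 2, with overlap between all groups (0.17 ± 0.09, edgeR adjusted p = 0.139). Sirt3, the main mitochondrial deacetylase, was not called for the mean of the guides (0.15, edgeR adjusted p = 0.235) or with guide 2 (0.01, 0.947) and was called higher with guide 1 (0.29, adjusted p = 0.0480). Exons of Psmd13 and Ric8a on the other strand overlap 12.7% of its exons. Sirt2 (0.04), Sirt6 (−0.06) and Sirt5 (−0.02) were not called, and the value of Sirt5 is uncertain because 286 of its bases are identical to Xpnpep1.

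Among acetyltransferases and coactivators 4 of 11 rose, 3 fell and 4 were not called (63.6% called, background 51.0%), with a median log2 change of 0.07. All of these changes were under 1.5-fold. Ncoa2 (chr1:13139105-13374083), a p160 coactivator of nuclear receptors, had the lowest p. It was counted at 65.7, 61.1 and 61.9 CPM in GFPsg, 46.7, 50.4 and 50.2 CPM with guide 1 and 59.1, 52.0 and 52.9 CPM with guide 2. All libraries labelled knockout were below the controls, and Ncoa2 fell by 0.28 ± 0.05 (edgeR adjusted p = 5.53e-05), by 0.36 with guide 1 and by 0.20 with guide 2. Its relative Ncoa1 was lower mainly with guide 1 and is described with the guide difference, and Ncoa3 was not called (0.02).

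Hat1 was counted at 182, 196 and 201 CPM in GFPsg, 222, 230.0 and 233 CPM with guide 1 and 196, 212 and 218 CPM with guide 2. Guide 1 lay above the controls and guide 2 overlapped them. Hat1 rose by 0.18 ± 0.04 (edgeR adjusted p = 0.00176), with 0.24 for guide 1 (adjusted p = 0.00042) and 0.11 for guide 2 (adjusted p = 0.0679). Kat7, whose enzyme acetylates histone H3 with BRPF partners and histone H4 with JADE partners, was at 87.8, 84.4 and 85.4 CPM in GFPsg, 88.9, 90.0 and 90.5 CPM with guide 1 and 99.5, 96.6 and 93.4 CPM with guide 2. The 3 groups did not overlap, and Kat7 rose by 0.12 ± 0.03 (edgeR adjusted p = 0.00693), with 0.07 for guide 1 (adjusted p = 0.176) and 0.17 for guide 2 (adjusted p = 0.00153).

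The paralogs Ep300 and Crebbp, which place much of the acetylation at enhancers, are both long genes. Ep300 stood at 110.2, 102 and 103 CPM in GFPsg, 114, 116 and 112 CPM with guide 1 and 140.1, 123 and 111 CPM with guide 2. The lowest guide 2 library was within 1 CPM of the highest control, and the first replicate of each of those groups was its highest. Ep300 rose by 0.18 ± 0.05 (edgeR adjusted p = 0.0100), and by 0.17 with both first replicates left out. It was not called with guide 1 (0.11, adjusted p = 0.145) and was called with guide 2 (0.25, adjusted p = 0.00353). Crebbp rose by 0.14 (edgeR adjusted p = 0.0424), with 0.08 for guide 1 (adjusted p = 0.322) and 0.20 for guide 2 (adjusted p = 0.0156), and this call was lost without GFPsg replicate 2 (0.169) or 3 (0.0968) or Tada2bsg1 replicate 2 (0.0859), with a count minimum of 50 and with only the groups compared. Kat8, which acetylates lysine 16 of histone H4, fell by 0.16 (edgeR adjusted p = 0.0120), with −0.12 for guide 1 (0.0921) and −0.20 for guide 2 (0.00914), and was not called with library size alone (0.195) or without GFPsg replicate 2 (0.0709). The other MYST genes Kat5 (0.09), Kat6a (0.07) and Kat6b (−0.09) were not called, and Rnaseh2c on the other strand covers 12.1% of Kat5 exons. Kat6a was called higher with both first replicates left out (0.09, adjusted p = 0.0474).

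Of the 7 bromodomain genes, 3 fell (42.9%, background 26.3%) and 4 did not pass the test, for a median log2 change of −0.08. Brd9, a subunit of the non-canonical BAF remodeller, was counted at 25.9, 24.8 and 23.0 CPM in GFPsg, 20.6, 19.7 and 20.8 CPM with guide 1 and 21.2, 22.2 and 22.2 CPM with guide 2. The groups did not overlap, and Brd9 fell by 0.22 ± 0.05 (edgeR adjusted p = 0.000899), with −0.27 for guide 1 and −0.17 for guide 2 (adjusted p = 0.0193). The BET genes Brd2 and Brd3 fell less. Brd2 was at 227, 213 and 208 CPM in GFPsg, 189, 194 and 189.9 CPM with guide 1 and 212, 198 and 203 CPM with guide 2, with guide 2 overlapping the controls and genes on the other strand covering 9.8% of its exons (−0.13 ± 0.04, edgeR adjusted p = 0.00628). Brd3 was at 62.6, 56.8 and 59.5 CPM in GFPsg, 53.8, 52.3 and 54.3 CPM with guide 1 and 59.2, 54.0 and 52.8 CPM with guide 2, also with overlap (−0.13 ± 0.04, edgeR adjusted p = 0.0150). With guide 1 both were called (−0.18 and −0.16, edgeR adjusted p = 0.00200 and 0.0140), and with guide 2 neither (−0.08 and −0.11, 0.127 and 0.0862). With library size alone neither was called (0.373 and 0.440), and the Brd3 call was also lost without GFPsg replicate 1 (0.0888) or 3 (0.0635) or Tada2bsg2 replicate 2 (0.0557) or 3 (0.0504). Brd1 (−0.08), Brd7 (−0.03), Brd8 (−0.02) and Bptf (0.02) were not called, of which Brd1 was called lower with both first replicates left out (−0.11, adjusted p = 0.00990).

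Among the 6 scaffolds Sin3b fell, Mta2 rose and 4 were not called (33.3% called, background 51.0%), with a median log2 change of 0.05. Sin3b, a scaffold for Hdac1 and Hdac2, was counted at 82.5, 87.2 and 81.5 CPM in GFPsg, 75.6, 73.6 and 73.1 CPM with guide 1 and 76.7, 75.6 and 71.7 CPM with guide 2. All controls were higher than all other libraries. The log2 change was −0.17 ± 0.04 (edgeR adjusted p = 0.000655), with −0.18 for guide 1 and −0.17 for guide 2, and the gene was not called with library size alone (0.0633). Mta2, of the NuRD complex, was at 87.2, 88.0 and 85.8 CPM in GFPsg, 91.8, 94.6 and 93.5 CPM with guide 1 and 93.1, 92.5 and 92.2 CPM with guide 2. It rose by 0.10 ± 0.03 (edgeR adjusted p = 0.0154) without overlap with the controls, and was not called with no filter on low counts (0.0700). Mta1 was at 133, 127 and 131 CPM, 132, 136 and 134 CPM, and 145, 135 and 139 CPM in the same order, with overlap, and was not called (0.07 ± 0.03, edgeR adjusted p = 0.0984). It was called higher with guide 2 (0.10, adjusted p = 0.0480), whose libraries all lay above the controls, and in the knockout contrast under 4 of the 19 alternatives, DESeq2 among them. Sin3a (0.02), Ncor1 (0.06) and Rcor1 (0.04) were not called.

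The guides were also compared with each other, guide 2 against guide 1. Of the 42 members 1 was called (2.38%, background 3.68%, with 2.66% higher and 1.02% lower). It was Ncoa1, counted at 50.3, 47.5 and 49.8 CPM in GFPsg, 41.4, 42.7 and 40.5 CPM with guide 1 and 52.0, 46.8 and 45.2 CPM with guide 2. Guide 1 lay below both other groups, which overlapped. Ncoa1 was higher with guide 2 by 0.21 ± 0.05 (edgeR adjusted p = 0.0318), with −0.24 for guide 1 (adjusted p = 0.000795) and −0.04 for guide 2 (adjusted p = 0.616) against GFPsg. The call between the guides was lost with library size alone (0.0604), without any 1 of the 3 guide 1 libraries (0.0759 to 0.176), and without Tada2bsg2 replicate 1 (0.121) or 2 (0.0693). Against GFPsg the mean of the guides gave −0.14 ± 0.04 (edgeR adjusted p = 0.0143), which was lost with library size alone, with only the groups compared and without GFPsg replicate 1 (0.0514) or 3 (0.0815), Tada2bsg1 replicate 3 (0.0531) or Tada2bsg2 replicate 2 (0.0526). The next lowest p-values were those of Ncoa2 (0.16 ± 0.05, adjusted p = 0.135), Hat1 (−0.13 ± 0.05, 0.168), Hdac9 (0.63 ± 0.23, 0.167) and Kat7 (0.10 ± 0.04, 0.172), none of them called by edgeR.

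Partners and suppliers of these enzymes were examined in 95 further genes in 4 lists, of which 93 passed the filter. There edgeR called 21 higher and 30 lower (54.8%), near the background of 51.0% (24.7% higher and 26.3% lower), with a median log2 change of −0.01. In a list of 28 genes of MYST complexes and the ING family 6 rose and 9 fell. Ing1 and Ing2, both among those that fell, are known as subunits of SIN3 complexes. Jade1, which directs Kat7 to histone H4, stood at 53.2 ± 0.83 CPM in the controls and at 147 ± 8.3 and 134 ± 4.9 CPM with guides 1 and 2 (1.40 ± 0.04, edgeR adjusted p = 1.84e-14), and Ing1, a reader of methylated H3, from 50.4 ± 2.5 to 36.5 ± 0.38 and 36.4 ± 0.99 CPM (−0.47 ± 0.04, adjusted p = 2.11e-08). Among 30 subunits of deacetylase complexes 9 rose and 6 fell. Rcor2, a CoREST scaffold like Rcor1, went from 2.72 ± 0.15 to 8.61 ± 0.83 and 7.97 ± 0.21 CPM (1.61 ± 0.08, edgeR adjusted p = 4.39e-11), and Tbl1xr1, of the NCOR complex, from 69.8 ± 0.81 to 97.5 ± 1.6 and 98.4 ± 3.2 CPM (0.49 ± 0.03, adjusted p = 1.56e-09).

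Of 23 tested further readers of acetyl-lysine 5 rose and 7 fell (52.2% called, background 51.0%). Phip stood at 153 ± 1.9 CPM in the controls and at 249 ± 6.8 and 257 ± 20 CPM with guides 1 and 2 (0.72 ± 0.04, edgeR adjusted p = 2.48e-10), and the BAF ATPase gene Smarca2 from 24.2 ± 0.41 to 14.5 ± 0.23 and 16.2 ± 1.1 CPM (−0.66 ± 0.05, adjusted p = 4.24e-09). Genes that supply acetyl-CoA and NAD fell in 8 of 12 tested, where 26.3% of all genes fell, with 1 higher and a median of −0.20. This share rests on few genes and was not tested against the background. Acly, which splits cytosolic citrate into acetyl-CoA, went from 487 ± 19 CPM to 245 ± 1.6 and 290.2 ± 10 CPM. It was called lower in the knockout contrast under each of the 19 alternatives, with a log2 change between −0.88 and −0.79. The difference between the guides was 0.25 (edgeR adjusted p = 0.00157). Slc25a1, which exports that citrate from mitochondria, went from 56.0 ± 2.0 to 37.4 ± 2.0 and 40.6 ± 1.5 CPM (−0.53 ± 0.04, edgeR adjusted p = 1.11e-08). With library size alone the 93 genes gave 39 higher and 19 lower, where 9350 of all genes were called, in place of 9141. That scaling also raised the all-gene median, so the split is not read as a result about these genes.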

How the data were processed

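RNA from 9 B16F10 libraries was made into stranded mRNA libraries, per the labels' protocols. The authors deposited whole-number read counts per gene, made with bcl2fastq, HISAT2 and HTSeq on mm10, per the submitters' processing notes. Versions, annotation release and strand setting are not given in the sources used here, so reads of overlapping or antisense genes cannot be told apart. No column was left unused (0). GENCODE M21 gave symbols and coordinates for 54723 of 54752 identifiers.

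edgeR 4.0.16 (R 4.3.3; filterByExpr with a count minimum of 10, TMM, quasi-likelihood F test, 1 fit of all groups) tested 17931 genes holding 99.97% of counts, with Benjamini-Hochberg adjustment over all of them. Standard errors are the change over the square root of F. CPM and RPKM (merged exons) were computed here. The fit was tested on simulated data, with changes placed in 50 genes per fold drawn from all tested genes. It recovered 49.0% of 1.25-fold, 80% of 1.5-fold, 89.6% of 2-fold and 100% of 4-fold changes, with 5 false calls. Far fewer genes were changed there than the 51.0% called in the data. Members also lay at a higher median CPM than all tested genes, so these rates do not give the recovery for members. A gene that was not called may thus still have changed by a small amount. Alternatives, 17 listed at the outset and 2 added after seeing the data, included DESeq2 1.42.0. Replicate pairs differed by 7.12 to 22.7 chi-square per degree of freedom, so none was a duplicate.

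The members, lists and tests were chosen with earlier results of these data known. Full values were given for the 3 members per role with the lowest p, the 5 lowest in the guide difference, members called in opposite directions with the guides (none) or under 1 CPM, and 2 genes per further list. Hdac1, Hdac6 and Ep300 were added after their values were seen.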

Additional observations from a re-analysis of the deposited data

Results flagged for a closer look

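Ncoa1, Acly and Tada2b differed between the guides by edgeR's test of guide 2 against guide 1. Ncoa1 was 0.21 higher on the log2 scale with guide 2 (adjusted p = 0.0318, with 0.00419 to 0.176 over 19 alternatives), and all 3 guide 2 libraries lay above all 3 guide 1 libraries. Acly was 0.25 higher with guide 2 (adjusted p = 0.00157). Tada2b, the targeted gene, had a log2 difference of −0.28 (adjusted p = 0.00671), with all 3 guide 2 libraries below all 3 guide 1 libraries.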

How the results depend on the processing

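With library size alone, guide 1 gave 14 members higher and 6 lower, guide 2 17 and 2, their mean 18 and 4, the 93 further genes 39 and 19, and the guide difference 0. Over all genes that scaling called 8864 with guide 1, 8235 with guide 2 and 9350 for their mean, against 8677, 8092 and 9141 in the main fit. It also raised the all-gene median of the knockout contrast, so these splits by direction are not read as results about the listed genes. Between the guides, 2 members were called with no filter on low counts (2 higher), and 0 with both first replicates left out (0 higher). Over all genes these fits called 1070 and 708, against 660 in the main fit. Leaving out 1 library gave 0 to 2 members called between the guides (0 to 2 higher), 7 to 11 lower in the knockout contrast, with 7 without Tada2bsg2 replicate 2, and 17 to 22 in either direction. The calls over all genes moved too, to between 335 and 808 between the guides and between 8184 and 9225 in the knockout contrast, where the main fit gave 660 and 9141. Of the 42 members, 20 reached 10 RPKM with the longest transcript. Deviations of samples with the same replicate number correlated at −0.012 to 0.100, 8 of 9 above 0 and highest for GFPsg replicate 1 with Tada2bsg2 replicate 1, and those with different numbers at −0.088 to 0.041, 5 of 18 above 0. The medians were 0.031 for the same number and −0.016 for different numbers. Most same-number pairs lay under 0.1, and on that cutoff the numbers were not taken as pairs. The cutoff does not test whether a block matters. A replicate block gave 4 members between the guides (3 higher, 1 lower), 24 in the knockout contrast, 25 with guide 1 and 23 with guide 2. The block also raised the calls over all genes, to 9938 from 9141 in the knockout contrast. With guide 1 they went to 9512 from 8677 and with guide 2 to 9023 from 8092. Over all genes the guide difference called 660 genes, 1705 with the block, 1070 with no filter, and 345, 335 and 399 without Tada2bsg1 replicate 2, Tada2bsg1 replicate 3 and Tada2bsg2 replicate 2. DESeq2 called 21 members and 8973 of all genes in the knockout contrast.

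The reversals were all of log2 changes that were called in neither fit. In the guide difference Sirt1 reached −0.00061 (no filter), −0.00033 (only the groups compared), −0.000069 (replicate block), −0.014 (upper quartile) and −0.017 to 0.026 with 1 library left out. Sirt7 reached 0.0017 (RLE), 0.00028 (DESeq2), 0.0019 (library size), 0.027 (both first replicates left out) and −0.034 to 0.032 with 1 left out. With both first replicates left out Brd1 was at −0.0033, Brd3 at −0.0017, Ncoa3 at −0.0033 and Sin3b at −0.0086, and Sin3b at −0.0038 with the upper quartile and −0.0039 to 0.039 with 1 left out. Hdac7 ran from −0.041 to 0.012. In the knockout contrast library size alone put Brd1 at 0.0041, Brd7 at 0.056, Brd8 at 0.061, Sirt5 at 0.062 and Sirt6 at 0.028. With 1 library left out Bptf ran from −0.019 to 0.071, Brd7 from −0.039 to 0.0037, Ncoa3 from −0.015 to 0.072 and Sirt5 from −0.098 to 0.051. The cause was not tested. Depth limits mainly Hdac9, the one member near 1 CPM.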

Other observations

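The split by transcript length was chosen after seeing the data. Among the 21 longer members GFPsg replicate 2 was the lowest of its group for 15 and Tada2bsg2 replicate 3 for 11, and within Tada2bsg1 replicates 1, 2 and 3 were the highest for 6, 10 and 5. Among the 21 shorter members GFPsg replicates 1, 2 and 3 were the highest for 5, 9 and 7, and Tada2bsg1 replicates 1, 2 and 3 for 4, 8 and 9. Tada2bsg1 replicate 3 was the lowest of its group for 11 longer and 4 shorter members, and replicate 1 for 4 and 13. Thus in each of the 3 groups the counts per library differed between longer and shorter members, a difference that was not tested.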
